A study of Macaca mulatta with 56 samples.

Results

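IL3RA and GTSF1 were the named genes with the largest rises in amygdala of estradiol-treated rhesus macaques among the genes that passed the test there. They are 2 of the 17807 Ensembl identifiers in the table, ENSMMUG00000064092 (IL3RA) and ENSMMUG00000003758 (GTSF1). Both were chosen by the amygdala comparison itself, so their amygdala values are given as a description, without a test. The level under GTSF1's identifier was 0 in every library outside the amygdala, so only IL3RA was followed into hippocampus, occipital cortex and prefrontal cortex.

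RNA sequencing was run on bulk tissue of amygdala, hippocampus, occipital cortex and prefrontal cortex from 14 old female rhesus macaques. The 7 HT animals (hormone therapy) carried capsules of estradiol, begun directly after removal of ovaries and uterus (OvH), with serum estradiol of 82.1 pg/mL. The 7 OvH animals had the same surgery and empty capsules, with serum estradiol of 6.6 pg/mL. All animals were between 19.4 and 23.2 years old and ate a Western-style diet, in which fat gave 36% and sugars 18.5% of calories, where chow has 13% and 6%. Surgery came about 6 weeks after the start of this diet, and the study lasted 30 months. Every animal thus lacked ovaries and ate the same diet, and no animal with ovaries or on chow was included. Animals shared pens, but the labels used here do not say which animals shared one or were related.

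IL3RA encodes the alpha chain of the interleukin 3 receptor, which binds interleukin 3 and signals with the common beta chain CSF2RB through JAK2 and STAT5. In humans the gene lies in the pseudoautosomal region of the sex chromosomes, and its protein, CD123, is abundant on plasmacytoid dendritic cells and basophils and present on microglia. GTSF1 is a small protein with CHHC zinc fingers that works with PIWI proteins in the piRNA pathway, which silences transposons in the germ line, as shown in mice and flies.

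Levels are given as normalized read counts, which the authors scaled so that the upper quartile was equal in all libraries. These values are not divided by transcript length. In an amygdala library 1 read was worth 0.599 to 1.64 normalized counts, and libraries of all regions held 34.63 to 93.34 M reads (mega-reads). Amygdala libraries had abundant neuronal and astrocytic transcripts, among them SNAP25 at 196200 ± 44900 in HT and 206800 ± 39800 in OvH, and GFAP at 167300 ± 76900 in HT and 178500 ± 91100 in OvH (SD, n = 7 each). Across identifiers, mean levels in amygdala and in the other regions correlated at a Spearman rho of 0.534 to 0.545, against 0.976 to 0.986 among the other regions. An identifier therefore need not hold the same transcript in amygdala and elsewhere, and 76.1% of identifiers had levels within 4-fold. Over the 500 identifiers that varied most together between animals in both cortical regions, the hippocampus libraries of OvH animals 30 and 43 correlated at 0.186 and 0.228 with their own animal. The library of animal 30 correlated better with animal 43 (0.427), whereas the library of animal 43 had its own animal as the best match. The other 12 hippocampus libraries correlated at 0.572 to 0.888, so the HT difference of IL3RA in hippocampus is given with and without the libraries of animals 30 and 43.

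IL3RA in amygdala split the HT animals. HT animals 42, 41 and 39 had 232.3, 229.0 and 165.2 normalized read counts, HT animals 37 and 38 had 75.0 and 45.1, and HT animals 36 and 40 had 7.6 and 4.4. OvH animals 30, 31, 32, 33, 34, 35 and 43 had 9.6, 3.6, 8.1, 7.1, 6.7, 7.2 and 6.4. The groups overlapped: 5 of 7 HT animals lay above every OvH animal, and animals 36 and 40 lay within the OvH range. IL3RA averaged 108.4 ± 99.3 in HT amygdala and 6.97 ± 1.83 in OvH amygdala (SD, n = 7 each), a ratio of means of 15.5. On the scale of log2(normalized count + 1), which understates the change of low genes, the difference was 2.82 with a standard error of 0.76. Before scaling, these values rested on 3 to 149 reads per HT library and 3 to 12 reads per OvH library. The pass that put IL3RA among the genes that rose was lost without animal 31, 33, 34, 35, 37, 38, 41, 42 or 43 (limma adjusted p from 0.0505 to 0.0739), without the filter on low values (0.0611) and with myelin or ribosomal levels as a covariate, described with those levels. In bulk tissue, fewer cells of a type and less RNA per cell cannot be told apart.

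**Figure D1:**
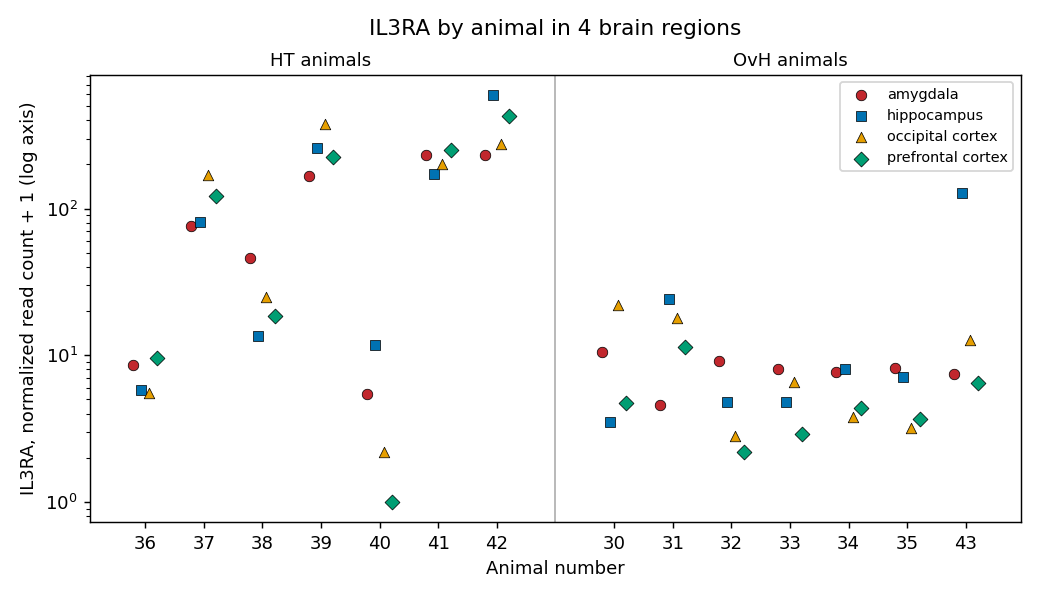
IL3RA in each animal: normalized read count plus 1 on a log axis against animal number, with HT animals left and OvH animals right and 1 symbol per brain region. HT animals 37, 39, 41 and 42 are high in all 4 regions, whereas HT animals 36 and 40 are low in all 4, and the hippocampus of OvH animal 43 (125.9) is the high point among OvH animals.

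The same HT animals were high outside the amygdala. In hippocampus, HT animals 36, 37, 38, 39, 40, 41 and 42 had 4.8, 80.0, 12.6, 257.2, 10.8, 171.6 and 591.7 normalized read counts of IL3RA, and OvH animals 30, 31, 32, 33, 34, 35 and 43 had 2.5, 23.2, 3.8, 3.8, 7.1, 6.1 and 125.9. Only HT animals 39, 41 and 42 lay above all OvH animals there, with OvH animal 43 above HT animal 37 and OvH animal 31 above HT animal 38. OvH animal 43 had 6.4 in amygdala, 11.7 in occipital cortex and 5.5 in prefrontal cortex. Its hippocampus library correlated weakly with its own animal (0.228), which was still the best match of that library.

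In occipital cortex, the same 7 HT animals in the same order had 4.5, 168.9, 24.0, 374.0, 1.2, 201.1 and 272.2, and the 7 OvH animals had 21.1, 16.9, 1.8, 5.6, 2.8, 2.2 and 11.7. In prefrontal cortex the HT animals had 8.6, 121.2, 17.5, 223.9, 0.0, 248.0 and 425.1, and the OvH animals had 3.7, 10.4, 1.2, 1.9, 3.4, 2.7 and 5.5. In both cortical regions HT animals 37, 38, 39, 41 and 42 exceeded every OvH animal, and HT animals 36 and 40 did not. Animal 40, at 0.0 in prefrontal cortex, was the lowest HT animal in amygdala and in both cortical regions. A count of 0 in that library allows up to 3 reads, or 4.66 normalized counts, for counting error only.

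Group means of IL3RA were 161.3 ± 212 in HT and 24.6 ± 45.2 in OvH in hippocampus, 149.4 ± 146 and 8.86 ± 7.79 in HT and OvH occipital cortex, and 149.2 ± 159 and 4.10 ± 3.11 in HT and OvH prefrontal cortex (SD, n = 7 each). The spread within HT was as large as the HT mean in each of these regions or nearly so. The log2 difference was 2.44 (SE 1.05, 95% interval 0.21 to 4.68) for hippocampus, 2.84 (SE 1.04, 0.63 to 5.04) for occipital cortex and 3.40 (SE 1.10, 1.08 to 5.73) for prefrontal cortex. By limma, a linear model fitted across all genes of a region, the adjusted p was 1.0 for hippocampus and prefrontal cortex and 0.999 for occipital cortex. No gene passed an adjusted p of 0.05 by limma in any of these 3 regions (0% of 16317, 16138 and 16286 genes tested, with 335, 303 and 603 at an unadjusted p under 0.05). By edgeR 0 passed in each, and by DESeq2 12, 0 and 6 passed in hippocampus, occipital and prefrontal cortex. IL3RA was among the DESeq2 calls in prefrontal cortex (log2 5.18, adjusted p = 0.00108).

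As a single gene, which was not chosen on these libraries but on amygdala of the same 14 animals, IL3RA was also compared by an exact two-sided permutation test over all 3432 splits of the animals. The exact p was 0.0629 for hippocampus, 0.042 for occipital cortex, 0.0262 for prefrontal cortex and 0.0355 for the mean of the 3 regions per animal, which was 2.89 higher in HT on the log2 scale. Adjusted over these 4 tests, the exact permutation p was 0.0629 in hippocampus and 0.0559 for each of the others, so no test passed 0.05. HT animals above the OvH median numbered 6, 5 and 6 of 7 in hippocampus, occipital and prefrontal cortex. Without the hippocampus libraries of animals 30 and 43, the hippocampus difference was 2.85 (unadjusted exact permutation p = 0.0442) and the 3-region mean 3.00 (0.0291). Since the 4 regions come from the same animals, they are not separate replications of the amygdala difference.

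**Figure D2:**
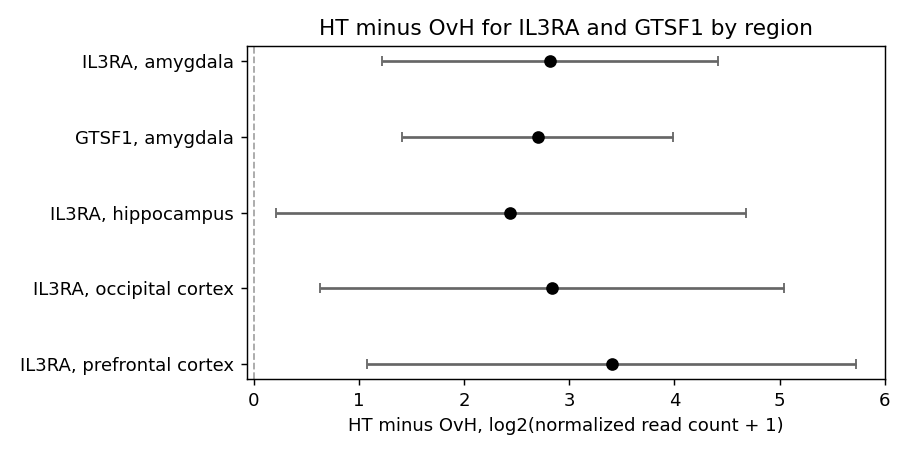
Difference HT minus OvH on the log2(normalized read count + 1) scale for IL3RA in 4 regions and GTSF1 in amygdala. Points are differences of group means (n = 7 each) and bars 95% intervals from limma; the IL3RA points lie between 2.44 and 3.40, and both amygdala points describe genes chosen on those values.

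The size of the HT difference in IL3RA could not be told apart between regions. The hippocampus difference minus that in occipital cortex was -0.39 (95% interval -1.78 to 0.99), minus that in prefrontal cortex -0.96 (-2.34 to 0.42), and occipital minus prefrontal cortex -0.57 (-1.95 to 0.81). The limma adjusted p was 0.998 to 1, with the animal as a block, and 0 of 16354 identifiers passed in these contrasts.

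Over all 14 animals, IL3RA averaged 92.9 ± 164 in hippocampus, then 79.1 ± 123 in occipital and 76.6 ± 132 in prefrontal cortex, and 57.7 ± 85.6 in amygdala (SD). In each region the SD exceeded the mean. Medians gave another order, with 14.3 in occipital cortex, 11.7 in hippocampus, 7.9 in amygdala and 7.0 in prefrontal cortex. With the animal as a block, hippocampus minus occipital cortex was 0.33 on the log2 scale (limma adjusted p = 0.438), hippocampus minus prefrontal cortex 0.76 (95% interval 0.07 to 1.45, adjusted p = 0.0684) and occipital minus prefrontal cortex 0.43 (adjusted p = 0.303). None of the 3 passed, where 50.7%, 43.4% and 47.9% of identifiers passed in the same contrasts. The hippocampus minus prefrontal cortex difference passed when animal 30 or animal 36 was left out (0.85 and 0.87, limma adjusted p = 0.0312 and 0.0494). Over all 14 animals left out singly this difference ran from 0.49 to 0.87, with a limma adjusted p of up to 0.182. The contrasts between regions are not given without the hippocampus libraries of both animals 30 and 43. Amygdala was not tested against the other regions because identifiers need not match.

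IL3RA varied mainly between animals. Within HT, IL3RA in amygdala and its mean over the other 3 regions correlated at a Pearson r of 0.973 (exact permutation p = 0.0006, adjusted over 8 relations 0.0048) and a Spearman rho of 0.964 (exact p = 0.0028, adjusted 0.0222). Without HT animals 36 and 40, the farthest from the median, r was 0.913 over 5 animals. Within OvH, where amygdala levels spanned 3.6 to 9.6, r was -0.591 (exact permutation p = 0.172, adjusted 0.689). Without animals 31 and 43 it was 0.413.

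Outside the amygdala, 88.7% of the variance of IL3RA within treatment groups lay between animals rather than between regions of an animal. That share exceeded the share of 99.3% of 16354 identifiers, whose median was 46.8%. The SD between animals of a treatment group was 2.14 on the log2 scale, against a median of 0.28 over all identifiers. Each animal had 1 treatment, so a standing difference between animals and an HT difference cannot be told apart. Over all 14 animals, the animal pattern of IL3RA in amygdala correlated best with its own identifier in the other regions, at 0.912, among 17807 identifiers, and the next best reached 0.867. Pooling the groups lets the amygdala difference for which IL3RA was chosen enter this correlation, so it is a description. Within HT alone its own identifier correlated at 0.973, rank 2 behind another at 0.979, and within OvH alone at -0.591, rank 16708. Levels under IL3RA's identifier were also near in size, at 57.7 in amygdala and 82.9 elsewhere.

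**Figure D3:**
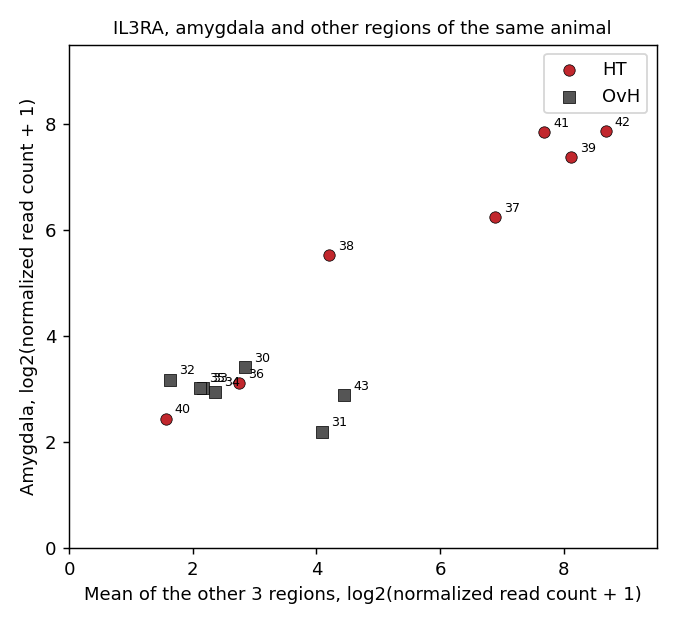
IL3RA in amygdala against the mean of the other 3 regions of the same animal, both as log2(normalized read count + 1), with 1 point per animal and the animal number beside it. HT animals 37, 39, 41 and 42 lie at the upper right, HT animals 36 and 40 lie among the OvH animals, and HT animal 38 lies between.

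Of the genes around IL3RA, the related cytokine gene IL5 rose in amygdala, and CSF2RB, the partner chain of IL3RA, did not pass. In the amygdala comparison 1112 of 16129 genes passed limma at an adjusted p of 0.05 (6.89%), with 994 higher in HT (6.16%) and 118 lower (0.732%). The split depends on scaling: 618 higher and 1013 lower passed with libraries scaled to equal totals, which moves the median of all genes to -0.20 on the log2 scale. With edgeR 675 higher and 343 lower passed (median -0.10), and with DESeq2 1303 higher and 450 lower. Of the 3 other measured genes of the interleukin 3, interleukin 5 and GM-CSF family, 1 rose and 0 fell. IL5, the cytokine that drives eosinophils, rose to 431.5 ± 123 in HT, against 208.9 ± 52.2 in OvH (SD, n = 7 each, log2 1.04, limma adjusted p = 0.00786). IL5 ran from 361.6 to 692.9 in HT and from 160.8 to 312.7 in OvH. The share of all genes tested with such a separation is not given here. CSF2RB, the common beta chain that IL3RA needs to signal, had 97.9 ± 37.8 in HT and 91.2 ± 39.2 in OvH (log2 0.10, 95% interval -0.53 to 0.73, limma adjusted p = 0.894). IL5RA, the alpha chain of the interleukin 5 receptor, had 38.3 ± 20.3 in HT and 44.8 ± 23.1 in OvH (-0.14, limma adjusted p = 0.899). IL3, CSF2 and CSF2RA were not analysed here.

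Among 30 genes of signalling downstream of the receptor, 1 rose and 0 fell, where 6.16% of all genes tested rose and 0.732% fell. Of the 30 genes, 3 had an unadjusted p under 0.05, and the median difference was -0.08 on the log2 scale, against 0.01 over all genes tested. GAB2, a docking protein of this pathway, rose to 3851 ± 758 in HT, against 2525 ± 331 in OvH (SD, n = 7 each, log2 0.60, limma adjusted p = 0.0151). That call ended with libraries scaled to equal totals (adjusted p = 0.0961), where 3 other members passed, and with myelin markers as a covariate (0.0802), where 0 passed. Without OvH animal 32, 3 members passed. The kinase JAK2 differed by 0.02, and the transcription factors STAT5A and STAT5B by -0.10 and 0.02. CISH, a feedback inhibitor induced by STAT5, had 19.4 ± 7.95 in HT and 17.7 ± 6.21 in OvH (log2 0.08). None of these 4 passed, with limma adjusted p from 0.832 to 0.962.

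Genes that neighbour IL3RA in the human pseudoautosomal region were measured under 8 identifiers, and 0 passed by limma, edgeR or DESeq2, with 0 at an unadjusted p under 0.05. By limma 6.89% of all genes tested passed, so a list this short could hold none by its size alone. For the 8 identifiers the values were as follows. Their differences ran from -0.27 to 0.38 on the log2 scale, with a median of 0.03. SLC25A6, a mitochondrial ADP/ATP carrier, had 11460 ± 4180 in HT and 12970 ± 2790 in OvH (-0.27). CD99, an adhesion molecule, differed by -0.26, ASMTL by 0.38, PLCXD1 by 0.21, GTPBP6 by 0.18, AKAP17A by 0.12, ZBED1 by -0.13 and PPP2R3B by -0.06. The limma adjusted p of these 8 genes ran from 0.537 to 0.946.

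Markers of the cells known to carry IL3RA were read in the same amygdala libraries. CLEC4C, a defining marker of plasmacytoid dendritic cells, was at 0 in all 14, where 3 reads would be 1.80 to 4.91 normalized counts. Since an identifier need not hold the same transcript in amygdala and elsewhere, this 0 does not show that these cells were absent. Of 5 further markers of these cells, 1 rose and 0 fell, where 6.16% of all genes tested rose and 0.732% fell. PLAC8 rose to 769.4 ± 300 in HT, against 321.4 ± 170 in OvH (SD, n = 7 each, log2 1.33, limma adjusted p = 0.0138, 0.0715 with myelin markers as a covariate). IRF7, an interferon regulator, had 23.8 ± 9.88 in HT and 46.5 ± 25.3 in OvH (-0.87, limma adjusted p = 0.209), and IRF8 had 561.4 ± 131 in HT and 425.1 ± 107 in OvH (0.41, adjusted p = 0.249). Summed over the list, levels were 1646 to 3082 in HT and 1167 to 2167 in OvH.

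Of 4 basophil and mast cell markers, 0 passed by limma, edgeR or DESeq2, where 6.89% of all genes passed by limma. An unadjusted p under 0.05 was found for 1 of them. HPGDS, a prostaglandin D synthase, had 84.9 ± 24.2 in HT and 50.0 ± 17.5 in OvH (log2 0.79, limma adjusted p = 0.113), KIT had 3214 ± 884 in HT and 3218 ± 818 in OvH, and HDC, which makes histamine, differed by 0.38. GATA2 leaned the other way, with 54.8 ± 34.3 in HT and 71.9 ± 34.9 in OvH (log2 -0.52, limma adjusted p = 0.508). Of 16 microglial markers, 2 rose and 0 fell, where 6.16% of all genes tested rose and 0.732% fell. The list's median was 0.19. AIF1, a calcium-binding protein of microglia, rose to 2413 ± 540 in HT, against 1177 ± 375 in OvH (log2 1.06, limma adjusted p = 0.0069), and GPR34 rose to 3448 ± 680 in HT, against 2184 ± 581 in OvH (0.68, adjusted p = 0.031). The homeostatic microglial receptors P2RY12, CX3CR1 and CSF1R differed by 0.37, 0.08 and -0.09 and did not pass. The AIF1 call ended with the animal as a replicate block (adjusted p = 0.113) and the GPR34 call with that block (0.119), equal totals (0.147), edgeR (0.0846) or without animal 33, 34, 35, 36, 37, 38 or 42 (up to 0.0762). The block fit also draws on the other regions, where an identifier may hold another transcript, so it cannot decide on these calls. Summed microglial levels were 26610 to 39690 in HT and 23000 to 46260 in OvH. The part of these cells in the IL3RA levels was not tested.

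GTSF1 in amygdala separated the groups apart from 1 animal. HT animals 36, 37, 38, 39, 40, 41 and 42 had 208.6, 407.6, 474.9, 339.4, 175.3, 404.2 and 31.1 normalized read counts, and OvH animals 30, 31, 32, 33, 34, 35 and 43 had 96.3, 37.2, 58.0, 17.0, 7.5, 25.2 and 72.9. Thus 6 of 7 HT animals lay above every OvH animal, and HT animal 42 lay within the OvH range. GTSF1 averaged 291.6 ± 158 in HT and 44.9 ± 32.2 in OvH (SD, n = 7 each), a ratio of means of 6.50 and a difference of 2.7 on the log2 scale with a standard error of 0.61. The HT libraries held 19 to 413 reads of GTSF1 and the OvH libraries 9 to 100. Compared with IL3RA, GTSF1 had a smaller SD within HT on the log2 scale (1.35, against 2.23 for IL3RA) and a larger one within OvH (1.24, against 0.37 for IL3RA).

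HT animals 37, 38, 39 and 41 lay above every OvH amygdala in both genes, and HT animals 36, 40 and 42 in 1 of them. HT animal 42 had the highest IL3RA and the lowest GTSF1 of the HT amygdalae, and HT animals 36 and 40, low in IL3RA, had 208.6 and 175.3 of GTSF1. Within HT the log2 values of the 2 genes correlated at a Pearson r of -0.087 (exact permutation p = 0.886) and a Spearman rho of -0.071 (exact p = 0.906), and within OvH at an r of 0.216 (exact permutation p = 0.669) and a rho of 0.321 (exact p = 0.498). The adjusted p over 8 relations was 0.899 for both r and 0.906 for both rho. Without the 2 animals farthest from the median of IL3RA, r was -0.542 in HT and 0.218 in OvH.

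**Figure D4:**
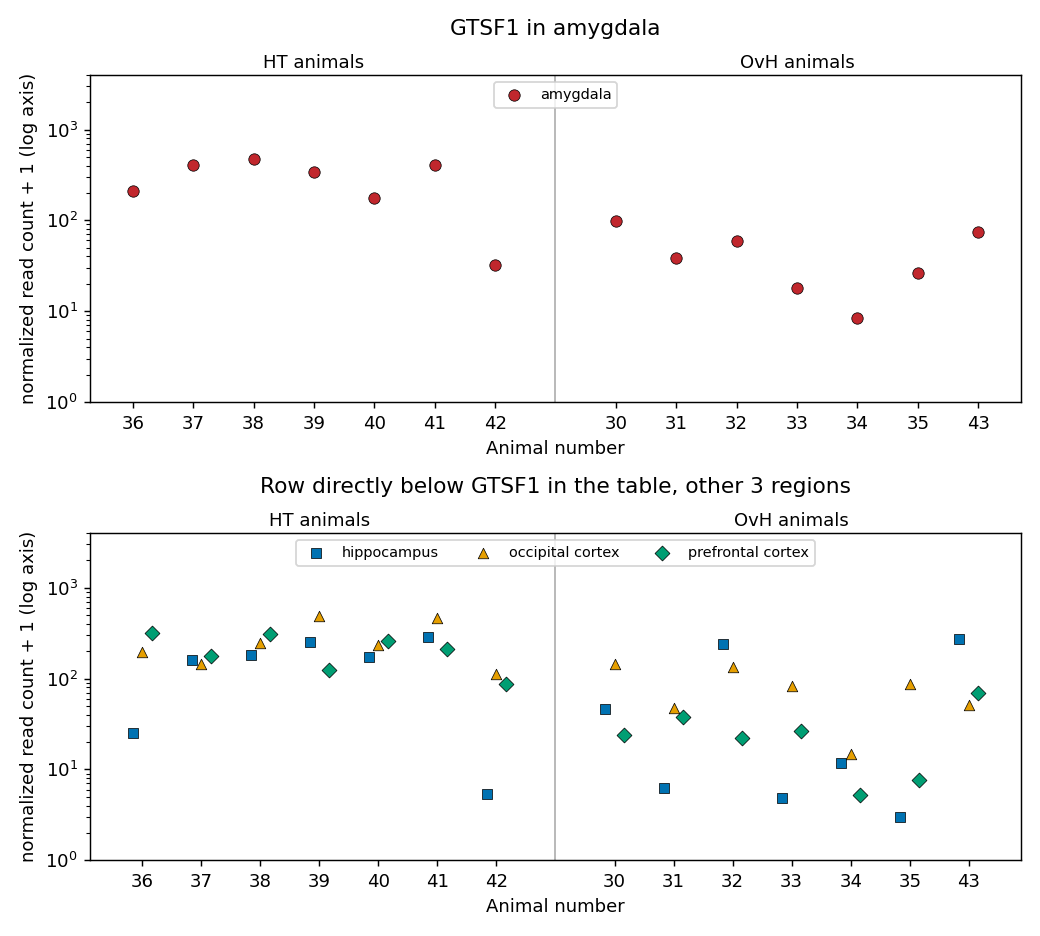
Upper panel: GTSF1 in amygdala, as normalized read count plus 1 on a log axis, by animal number, HT animals left and OvH animals right. Lower panel: the identifier listed directly below GTSF1 in the table, in hippocampus, occipital cortex and prefrontal cortex of the same animals; HT animal 42 is the lowest HT animal in the upper panel at 31.1 and OvH animal 34 the lowest OvH animal at 7.5.

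Outside the amygdala GTSF1's identifier was at 0 in all HT and OvH libraries, and levels of GTSF1 there were not analysed here. The identifier listed directly below it, ENSMMUG00000027707, carries the symbol Y_RNA and showed the reverse: it was at 0 in all 14 amygdala libraries and averaged 137.4 in the other regions. Its pattern over the 14 animals outside the amygdala correlated at 0.939 with GTSF1 in amygdala, the highest of 17807 identifiers, with the next at 0.856. The amygdala group difference for which GTSF1 was chosen enters this pooled correlation as well. Within HT alone the correlation was 0.901, rank 19 of 17807, and within OvH alone 0.86, rank 85. In prefrontal cortex this identifier had 85.6 to 317.9 in HT and 4.2 to 68.1 in OvH. It had 112.2 to 487.8 in HT and 13.8 to 144.1 in OvH occipital cortex, and 4.3 to 288.2 in HT and 2.0 to 271.6 in OvH hippocampus. This identifier was singled out after its values were seen, its values carry no test, and the name GTSF1 was not moved to it.

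The piRNA pathway in which GTSF1 works was mostly detected in amygdala at low levels. Besides GTSF1, 19 of its genes were tested and 2 rose while 0 fell, where 6.16% of all genes tested rose and 0.732% fell. The median difference was -0.03, against 0.01 over all genes. TDRD9, a Tudor-domain helicase, rose to 1455 ± 558 in HT, against 690.6 ± 475 in OvH (SD, n = 7 each, log2 1.19, limma adjusted p = 0.0455). FKBP6, a co-chaperone that loads piRNAs in mice, rose to 280.7 ± 127 in HT, against 128.1 ± 59.1 in OvH (1.15, limma adjusted p = 0.0326). By edgeR neither passed (adjusted p = 0.103 for TDRD9 and 0.0526 for FKBP6), nor with the myelin covariate (0.0634 and 0.111). The TDRD9 call also ended with equal totals (0.0679), no filter on low values (0.0826) and the animal as a replicate block (0.0886), a fit that also draws on the other regions. The TDRD9 call ended without any 1 of 10 animals (adjusted p up to 0.112), all but 31, 32, 39 and 40, and the FKBP6 call without 33, 35, 36, 38, 41, 42 or 43 (up to 0.0807).

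The PIWI proteins that GTSF1 binds did not pass. PIWIL1 had 126.1 ± 43.1 in HT and 146.2 ± 60.7 in OvH (log2 -0.20), PIWIL2 had 19.6 ± 9.31 in HT and 25.9 ± 11.8 in OvH (-0.54), and PIWIL4 had 92.8 ± 28.1 in HT and 68.2 ± 23.4 in OvH (0.45). Their limma adjusted p ran from 0.394 to 0.799. Of the Tudor-domain scaffolds, TDRD6 differed by 0.79, TDRD5 by -0.90, TDRD7 by 0.06, TDRD12 by -0.04 and TDRKH by -0.15. DDX4, the Vasa helicase of germ cells, had 91.3 ± 23.4 in HT and 55.8 ± 23.8 in OvH (0.77, limma adjusted p = 0.118). The helicase gene MOV10L1 differed by 0.76, MAEL by 0.29, GPAT2 by 0.27, SPOCD1 by -0.21, TEX15 by -0.23, EXD1 by -0.07, and the piRNA methyltransferase HENMT1 and the meiotic regulator MYBL1 by -0.03 each. None of these passed. Of 6 germ cell markers tested, DDX4 and MAEL among them, 0 passed by limma or edgeR and 1 by DESeq2, with 2 at an unadjusted p under 0.05. By limma 6.89% of all genes tested passed. All 6 markers leaned higher in HT, by 0.29 to 0.77 on the log2 scale with a median of 0.61, against 0.01 over all genes. The most abundant of these markers were SOHLH1, at 557.4 ± 321 in HT and 461.7 ± 351 in OvH (log2 0.36), and SOHLH2, at 307.0 ± 142 in HT and 213.9 ± 89.5 in OvH (0.52).

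Among the CHHC zinc finger genes besides GTSF1, 1 of 2 rose, where 6.16% of all genes tested rose. TRMT13, a tRNA methyltransferase, rose to 339.7 ± 141 in HT, against 156.0 ± 14.6 in OvH (SD, n = 7 each, log2 1.03, limma adjusted p = 0.0119). TRMT13 ran from 197.7 to 623.8 in HT and from 132.2 to 180.3 in OvH, and the share of all genes separated like this is not given. The call ended with myelin markers as a covariate (adjusted p = 0.0634). SNRNP48, a protein of the minor spliceosome, had 579.3 ± 156 in HT and 486.4 ± 99.4 in OvH (0.23, limma adjusted p = 0.521).

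**Figure D5:**
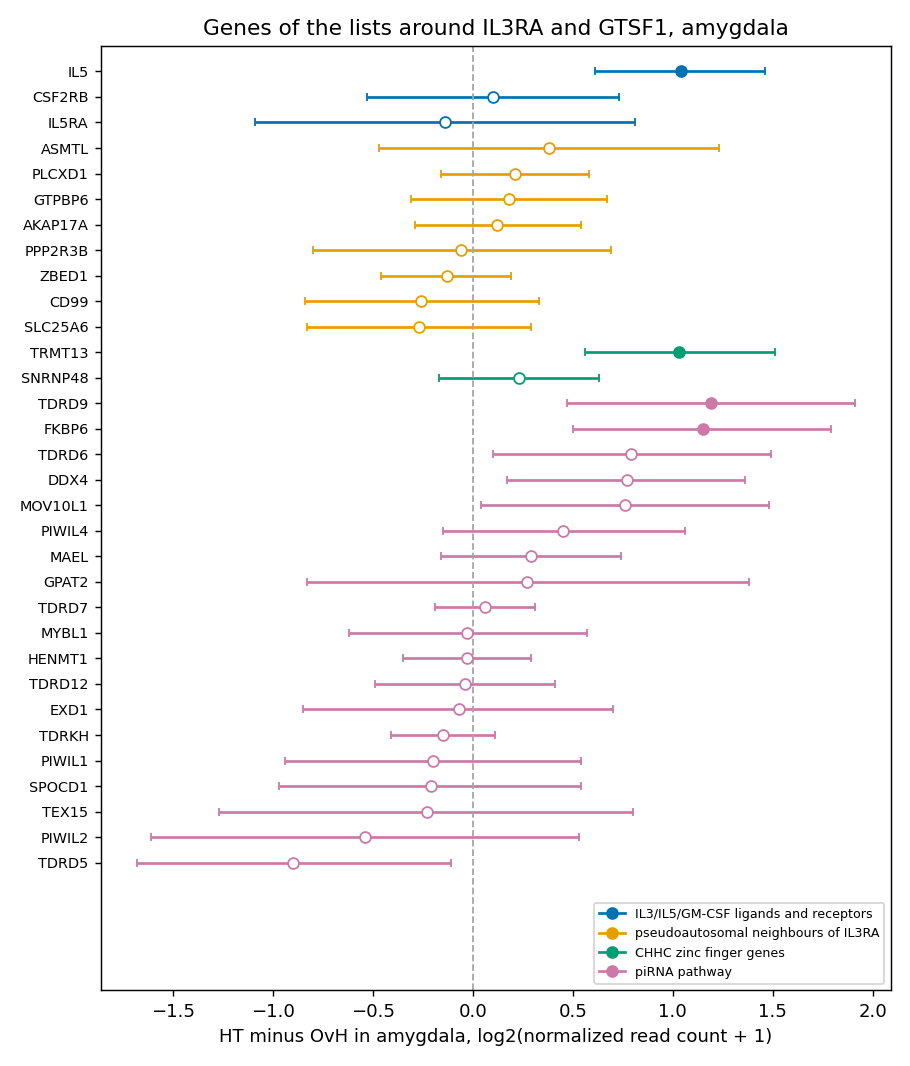
Difference HT minus OvH in amygdala on the log2(normalized read count + 1) scale for genes around IL3RA and GTSF1, grouped by list and colour. Points are differences of group means (n = 7 each), bars 95% intervals from limma, and filled points passed an adjusted p of 0.05; IL5, TRMT13, TDRD9 and FKBP6 are filled, and the pseudoautosomal genes all span 0.

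Named genes beside GTSF1 on its chromosome, by the order in a RefSeq annotation of another assembly (T2T-MMU8v2.0), did not pass. ITGA5, an integrin chain and the nearest on one side, had 271.4 in HT and 247.0 in OvH (log2 0.09). NCKAP1L, a blood cell actin regulator and the nearest on the other side, had 954.9 in HT and 761.0 in OvH (0.32). ZNF385A, COPZ1, PDE1B and PPP1R1A differed by 0.02, 0.22, -0.47 and 0.15, and the limma adjusted p of the 6 ran from 0.14 to 0.964.

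Over the 14 amygdala libraries, after subtracting each group's mean, the log2 levels most like IL3RA's included those of NCKAP5L (Pearson r 0.863), ADGRF3 (0.861), TAF1L (0.815) and GATA2 (0.809). For GTSF1 they were GPR3 (0.839), C1H1orf127 (0.837), DGKK (0.818), ZNF432 (0.805) and PCSK1 (0.779). These are among the highest of all identifiers with a symbol and a mean of at least 10, and are a description. On the log2 scale IL3RA's SD was 2.23 within HT and 0.37 within OvH, so its correlations rest mostly on the HT animals. TAF1L, at 10.7 in HT and 12.6 in OvH, was near the filter on low values. Of these genes only ZNF432 passed, at 2283 in HT and 745.0 in OvH (log2 1.61, limma adjusted p = 0.00675).

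By the size of the log2 rise IL3RA ranked 3 and GTSF1 ranked 4 of the 994 genes that rose, behind identifiers without a symbol. The next named genes that passed were SNORA70 at 2.29, RPS27A at 1.81, RPL26 at 1.76, PGPEP1L at 1.73 and RNU6ATAC at 1.69. SNORA70 is a small nucleolar RNA whose symbol stands on 4 identifiers, and RPS27A stands on 2, so reads may be split among copies. The largest named rises that did not pass were PAGE2B at 2.82, RPS15A at 2.53 and NPC1L1 at 2.24. The PGPEP1L call ended without animal 31, 33, 34, 35, 36, 37, 38, 41 or 43 (limma adjusted p up to 0.0835), and the RNU6ATAC call without 33, 35, 36, 37, 41, 42 or 43 (up to 0.0743). PGPEP1L also did not pass by edgeR (0.0555), without the filter (0.0598) or with the myelin covariate (0.115), nor RNU6ATAC with that covariate (0.0732).

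Other measures moved with treatment in the amygdala libraries. The mean log2 level of ribosomal protein genes was 15.81 ± 0.512 in HT (14.75 to 16.37) and 14.63 ± 0.397 in OvH (14.13 to 15.1). Of their identifiers 63 of 76 rose, as did 23 of 35 genes of the respiratory chain, against 6.16% of all genes tested. The mean of myelin markers was 13.13 ± 0.46 in HT and 12.67 ± 0.399 in OvH, with 3 of 19 identifiers risen (MOBP, GJB1 and MBP, by 1.46, 1.14 and 1.14). MOBP stands on 2 identifiers, and the other differed by 0.31 and did not pass (limma adjusted p = 0.643). The GJB1 call ended without animal 33 (limma adjusted p = 0.0514) and the MBP call without 33, 34, 35, 36, 37, 41 or 43 (up to 0.0786), without the filter (0.0969) or by edgeR (0.0663). HT amygdala libraries held 53.1 ± 9.3 M reads and OvH libraries 65.2 ± 14.9 M. With the ribosomal mean as a covariate IL3RA differed by 3.31 and GTSF1 by 2.50, and neither passed (limma adjusted p = 1.0 for both). With the myelin mean they differed by 2.81 and 2.18, and neither passed (0.102 and 0.0919). Within groups, Pearson's r with the ribosomal mean did not pass in any of 4 relations of 7 animals each, which does not show that there is none. For IL3RA it was -0.144 in HT (exact permutation p = 0.8) and -0.086 in OvH (0.899), and for GTSF1 -0.188 in HT (0.600) and 0.411 in OvH (0.351). Spearman's rho for the same relations was 0.179 and 0.107 for IL3RA and -0.143 and 0.429 for GTSF1 in HT and OvH (exact permutation p from 0.354 to 0.840), with all adjusted p of at least 0.899. Without the 2 animals farthest from the median, r was -0.059 and -0.244 for IL3RA and -0.554 and 0.195 for GTSF1 in HT and OvH. The ribosomal mean largely followed treatment, so a fit with both cannot tell them apart. The part of the ribosomal and myelin levels in the results was not tested.

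Markers of other cells of the tissue are set against the 6.89% of all genes that passed. Of 17 neuronal markers, 0 rose and 2 fell, SYP by 0.71 and DNM1 by 0.66 on the log2 scale. S100B rose by 1.05 as 1 of 12 astrocyte markers, LYZ by 0.96 as 1 of 7 monocyte and neutrophil markers, and the neuropeptide gene TAC1 by 0.88 as 1 of 16 genes known from amygdala. The SYP and DNM1 calls ended without animal 33, 34, 35, 36, 37, 38, 40, 42 or 43 (limma adjusted p up to 0.0981 and 0.110) and without the filter on low values (0.0606 and 0.0634), and the DNM1 call with the myelin covariate (0.0919). The LYZ call ended without 33 to 39, 42 or 43 (up to 0.104), with equal totals (0.101), edgeR (0.0612), no filter (0.0725) or the myelin covariate (0.179). The S100B call ended with the myelin covariate (0.0908), and the TAC1 call without 36 (0.0502). With equal totals 4 neuronal and 2 amygdala genes passed. By limma 0 of 6 T and NK cell, 0 of 12 endothelial and 0 of 10 steroid receptor genes passed, with 0, 3 and 0 at an unadjusted p under 0.05. By edgeR 0, 1 and 0 of them passed, and by DESeq2 0, 1 and 0. Of 2 red blood cell markers 0 passed by limma or edgeR and 1 by DESeq2, with AHSP at 168.0 ± 62.9 in HT and 85.3 ± 24.2 in OvH (log2 0.92, limma adjusted p = 0.0588) and HBA differing by 0.26. The most abundant members of the other lists without a call were SLC2A1 and VWF of endothelium (-0.05 and -0.40), CD4 and TRAC of T cells (-0.34 and 0.44) and the corticosteroid receptors NR3C1 and NR3C2 (-0.18 each). ESR1, an estrogen receptor, had 211.6 ± 90.9 in HT and 207.6 ± 105 in OvH (log2 0.09, limma adjusted p = 0.914).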

How the data were processed

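The table of normalized read signal was deposited by the authors as upper-quartile normalized read counts, 17807 Ensembl identifiers by 56 libraries. Libraries were made with a stranded mRNA kit from pulverized tissue, per the labels' protocols. FastQC 0.1.1.2, Trimmomatic, STAR 2.7.3a, edgeR 3.28.0 and the build Mmul_10 are named in the submitters' processing notes; the counting program and its strand setting are not given in the sources used here. Undoing each library's scaling gave whole reads for 100% of values (within 0.01 reads), and reads per library had a median of 59.88 M. The upper quartile was 2818.9375 in all libraries.

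HT was compared with OvH within each region by limma 3.58.1 with an intensity trend (R 4.3.3) on log2 of the value plus a pseudocount of 1. The test took genes whose mean over the region's 14 libraries was 10 or more, with Benjamini-Hochberg adjustment over all of them and a threshold of 0.05. The labels pair regions by animal, so contrasts between regions carried the animal as a block. Single values were tested by exact two-sided permutation over animals (Python 3.11.15). Recovered reads were refitted with edgeR 4.0.16 and DESeq2 1.42.0 as alternatives. The fits were also run on simulated counts, drawn independently for each gene. That run does not show how they behave for genes that vary as widely as IL3RA.

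The rule for named genes took IL3RA and GTSF1, all measured members of 4 lists around them, passing members of the other lists (at most 3 each, or the 2 most abundant where none passed; ribosomal and respiratory chain genes are given as counts), the next largest rises, the most alike genes and the chromosomal neighbours. JAK2, STAT5A, STAT5B, CISH, IRF7, IRF8, HPGDS, P2RY12, CX3CR1, CSF1R, SNAP25, GFAP and ESR1 were added by role after their values were seen. The members and lists were chosen with earlier results of these data known. The labels call the samples separate animals. Symbols were given for 15123 identifiers, 61 of them on several. The table of gene neighbours is from RefSeq (T2T-MMU8v2.0), another build than the authors', so no coordinates are given. One of the genes most like IL3RA is not reported here.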

Additional observations from a re-analysis of the deposited data

Results flagged for a closer look

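In hippocampus, HT animal 42 had 591.7 normalized read counts of IL3RA, far from the other 6 HT animals: the gap to the nearest, HT animal 39 at 257.2, was 0.57 of the group's range, where the limit for 7 samples is 0.568. OvH animal 43 had 125.9 in hippocampus, a gap of 0.833 of the range to OvH animal 31 at 23.2. That library held 70 reads of IL3RA and is one of the 2 hippocampus libraries that correlated weakly with their own animal in other regions. Its own animal was still its best match (0.228). In all, 10 groups were looked at in this way and 2 samples stood out. The limit is set for about 1 in 20 groups of normally distributed values, which these skewed counts are not, so that rate does not apply here. The gaps were taken on counts and not on the log2 scale of the tests. On that scale HT animals 42 and 39 had 9.21 and 8.01, with the lowest HT animal at 2.53. OvH animals 43 and 31 had 6.99 and 4.6, with the lowest OvH animal at 1.82.

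The identifier directly below GTSF1 carries signal outside the amygdala that no comparison of the report tested. It averaged 154.6 ± 107 in HT and 82.6 ± 119 in OvH hippocampus, 269.6 ± 150 in HT and 79.0 ± 47.1 in OvH occipital cortex, and 212.1 ± 88.7 in HT and 26.4 ± 21.5 in OvH prefrontal cortex (SD, n = 7 each). HT animals above every OvH animal numbered 1, 5 and 7 of 7 in hippocampus, occipital and prefrontal cortex. The share of all identifiers with such counts is not given here.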

How the results depend on the processing

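Under all alternatives tried, the IL3RA and GTSF1 differences in amygdala kept their sign, but not their pass: IL3RA did not pass without any 1 of 9 animals, without the filter on low values or with the myelin or ribosomal covariate, and GTSF1 did not pass with either covariate. IL3RA differed by 2.13 on the log2 scale with a pseudocount of 10, by 2.62 with equal totals, 3.82 with edgeR and 3.92 with DESeq2, and by 2.47 to 3.37 when single animals were left out. GTSF1 differed by 2.38, 2.49, 2.61, 2.68 and 2.36 to 3.17 under the same settings. The count of 1112 amygdala genes became 1753 with DESeq2, 484 with myelin markers as a covariate, 0 with the ribosomal protein mean as a covariate and 548 to 2362 when single animals were left out. Low counts were without OvH animal 33 (548), 35 (639) or 43 (622) or HT animal 36 (603), 37 (718), 38 (724) or 42 (736), and the high one without OvH animal 32 (2362). With the animal as a replicate block over 56 libraries the count was 1382 and the IL3RA difference stayed 2.82; this fit also draws on identifiers that hold other transcripts outside amygdala. With the ribosomal covariate all calls named in amygdala ended. That covariate largely followed treatment, so this loss cannot tell ribosomal level and treatment apart.

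Outside amygdala, DESeq2 gave 5.18 (5.175) for IL3RA in prefrontal cortex (adjusted p = 0.00108), past the threshold. Leaving out single animals gave 1.88 to 3.04 in hippocampus, 2.36 to 3.60 in occipital cortex, 2.88 to 4.33 in prefrontal cortex and 2.40 to 3.58 for the 3-region mean. The unadjusted exact permutation p of that mean ran from 0.00524 to 0.067, and was over 0.05 without HT animal 37 (0.0635), 39 (0.0659), 41 (0.0659) or 42 (0.067) or OvH animal 32 (0.0565), 33 (0.0519), 34 (0.0501) or 35 (0.0519). Without the hippocampus libraries of animals 30 and 43, a setting chosen after seeing the data, the hippocampus difference was 2.85 (exact permutation p = 0.0442). Between regions, leaving out single animals gave 0.10 to 0.56 for hippocampus minus occipital cortex, 0.49 to 0.87 for hippocampus minus prefrontal cortex and 0.29 to 0.53 for occipital minus prefrontal cortex. Without the replicate block the limma adjusted p of these was 0.773, 0.483 and 0.701. The 3 to 12 reads per OvH amygdala library limit how precisely the IL3RA ratio is known.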
